A study of Mus musculus with 35 samples.

Results

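Mouse cells labelled OB and OA were compared after 6 days in the reprogramming medium iCD1. The comparison was defined by the labels alone: it takes the 4 OB libraries and the 3 OA libraries of day 6 grown without BMP4, which are 7 of the 35 libraries of the series. OB and OA are the submitters' names for combinations of introduced factors, and the labels do not expand them. The submitters' title for the series speaks of reprogramming by Oct4 and Kdm2b, and in the data Kdm2b stood out in OB and Kdm2a in OA. Both groups went through the same infection and the same medium, and neither received the growth factor BMP4, which other cultures of the series got at 10 ng/ml. The labels call the sequenced material reprogramming cells, with no strain, age or sort given. Messenger RNA was enriched by its poly-A tail and sequenced, and the comparison asks how gene expression differs between these otherwise like-treated cultures.

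Kdm2a and Kdm2b encode paired histone demethylases that remove methyl groups from lysine 36 of histone H3. Each carries a zinc finger domain of the CXXC type that binds DNA at unmethylated CG dinucleotides. KDM2B also brings the variant Polycomb complex PRC1.1 to CpG islands, where the complex ubiquitinates histone H2A, whereas KDM2A is not known as a PRC1.1 subunit. Reprogramming turns somatic cells toward pluripotency by forced expression of transcription factors such as Oct4 together with chromatin regulators.

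The promoter windows of 4 genes that separated the groups are shown because CG dinucleotides are the letters to which the CXXC domain binds. Each is the 250 bases before the start of the gene in RefSeq (GRCm38.p6, minus strand, written 5′ to 3′), with every CG in capitals. Gldc (chr19:30175442-30175691), Reln (chr5:22344706-22344955) and Epha6 (chr16:60605532-60605781) were higher in OB, and Cubn (chr2:13491877-13492126) was lower in OB.
Gldc: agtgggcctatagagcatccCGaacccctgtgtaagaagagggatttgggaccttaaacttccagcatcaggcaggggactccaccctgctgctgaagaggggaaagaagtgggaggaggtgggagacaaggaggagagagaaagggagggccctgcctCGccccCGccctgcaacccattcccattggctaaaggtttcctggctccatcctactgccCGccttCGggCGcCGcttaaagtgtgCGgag
Reln: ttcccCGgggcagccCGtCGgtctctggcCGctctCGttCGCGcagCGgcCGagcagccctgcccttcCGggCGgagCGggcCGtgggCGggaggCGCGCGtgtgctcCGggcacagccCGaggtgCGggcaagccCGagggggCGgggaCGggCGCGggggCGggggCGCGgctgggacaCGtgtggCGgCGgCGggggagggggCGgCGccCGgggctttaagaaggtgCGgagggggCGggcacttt
Epha6: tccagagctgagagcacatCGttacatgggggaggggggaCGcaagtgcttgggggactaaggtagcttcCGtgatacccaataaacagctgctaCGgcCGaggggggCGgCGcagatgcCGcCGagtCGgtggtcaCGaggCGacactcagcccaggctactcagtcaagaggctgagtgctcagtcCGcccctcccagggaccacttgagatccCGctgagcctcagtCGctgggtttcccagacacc
Cubn: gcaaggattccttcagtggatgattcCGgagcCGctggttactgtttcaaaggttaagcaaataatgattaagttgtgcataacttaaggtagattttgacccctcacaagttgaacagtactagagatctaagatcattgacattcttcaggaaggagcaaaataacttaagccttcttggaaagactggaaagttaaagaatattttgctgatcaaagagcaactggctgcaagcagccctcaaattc
The windows hold 8 CG (Gldc), 37 CG (Reln), 15 CG (Epha6) and 2 CG (Cubn). The motif searched was CG, which reads the same on both strands. Of 32851 windows of this length, 43.0% hold at least as many CG as that of Gldc, 2.2% as many as that of Reln, 27.3% as many as that of Epha6 and 81.2% as many as that of Cubn. These counts describe the sequence only, and no binding was measured in the data used here.

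The deposited value is a normalized whole number per gene, not a read count, so the depth of each library is unknown. The 7 libraries had nearly the same total (4362734 to 4393668) and between 11984 and 12104 genes at a value of 10 or more. Values reach a shared ceiling of 18690, held by 9 or 10 genes in each library. Above 4000 they take few distinct steps, 61 in all. Across the tested genes the correlation of log2 values ran from 0.965 to 0.967 between OA libraries, from 0.966 to 0.974 between OB libraries and from 0.925 to 0.953 between the groups. The first principal component held 47.3% of the variance and placed all OA libraries on one side and all OB libraries on the other. The labels do not say that replicates came from separate cultures, so p-values measure the spread between these libraries, which may be technical.

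The labels were set against Kdm2b and Kdm2a first, and that these were the introduced factors is an inference from the values. Kdm2b (chromosome 5, 122870665 to 122989823, mm10, minus strand) was at 202, 232 and 236 in the OA libraries and at the ceiling of 18690 in each of the 4 OB libraries. Kdm2a (chromosome 19, 4314419 to 4398285, minus strand) was at the ceiling in each of the 3 OA libraries and at 868, 868, 946 and 1034 in OB. The groups were far apart in both genes and in opposite directions. On the log2 scale of value + 1, Kdm2b was higher in OB by at least 6.38 ± 0.09 (SE, limma, adjusted p = 1.74e-07) and Kdm2a lower by 4.33 ± 0.09 (adjusted p = 1.52e-06), and each size is a lower bound because of the ceiling. The ceiling also hides the spread of OB in Kdm2b and of OA in Kdm2a, so these SE and p-values do not measure it. Pou5f1, which encodes Oct4, was at the ceiling in all 7 libraries, so its level cannot be compared. Reads from an introduced copy and from the cell's own gene cannot be told apart in these values.

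In all, 1490 of 12542 tested genes (11.9%) passed an adjusted p of 0.05 in the limma test of OB against OA. Of these, 764 were higher in OB (6.09% of those tested) and 726 were lower (5.79%). The larger differences lay on the higher side: 377 genes rose and 235 fell past 2-fold, and 46 rose and 8 fell past 8-fold. The median log2 difference was 0.99 among the genes that rose, and its median size was 0.76 among those that fell, while the median over all tested genes was 0. The libraries of the groups did not overlap in 1489 of the 1490 called genes and in 25.4% of all tested genes. When each library was left out in turn, 624 of the 1490 genes kept their call in every such fit. Of the tested genes, 12221 reached 10 in at least 1 library of each group, and 651 of these (5.33%) rose and 671 (5.49%) fell. The higher and lower counts dropped to 443 and 362 without OA replicate 2, to 465 and 373 without OA replicate 3 and to 474 and 427 without OB replicate 3, and the lower count to 434 without OA replicate 1.

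**Figure D1:**
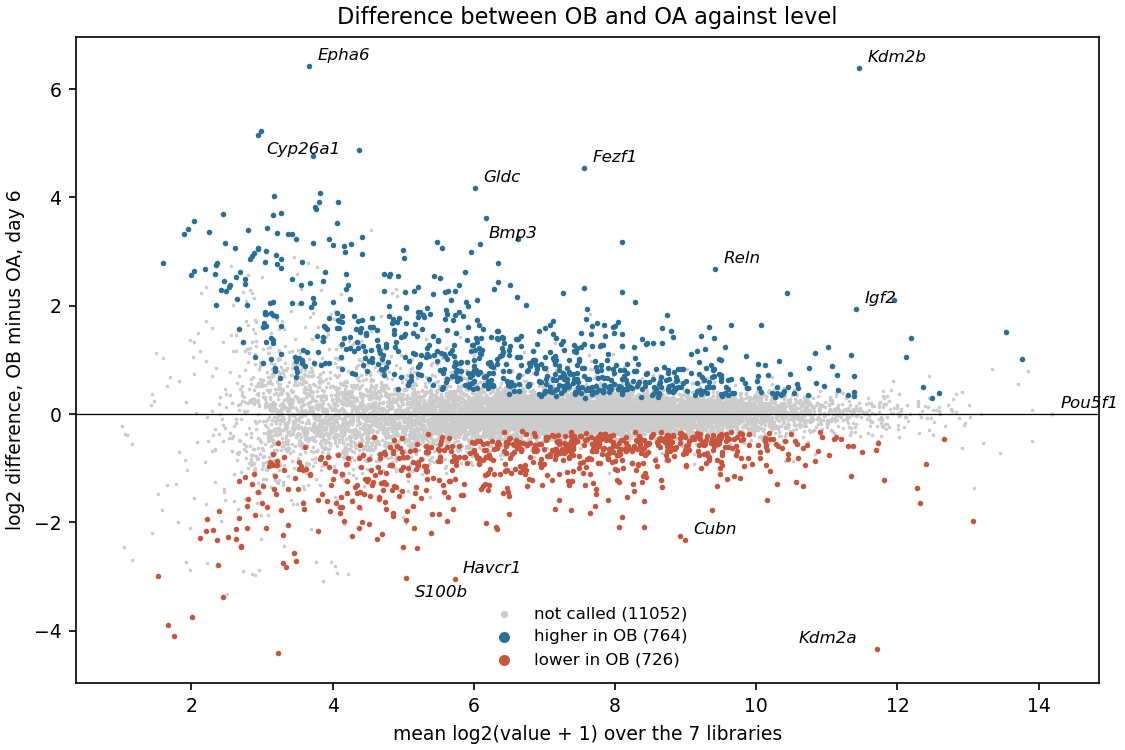
Log2 difference between OB and OA at day 6 (vertical axis) against the mean log2(value + 1) over the 7 libraries (horizontal axis), 1 point per tested gene. The 764 genes that rose reach larger differences than the 726 that fell, with Kdm2b and Kdm2a at high levels at the top and bottom right. Epha6 and Cyp26a1 were at 0 in every OA library, so their height rests on the 1 added before the log.

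Gldc, Egflam, Slc7a8 and Reln were among the 12 largest rises that the naming rule takes. Gldc (chromosome 19, 30098447 to 30175429, minus strand), the glycine decarboxylase of the mitochondrial glycine cleavage system, was at 15, 10 and 10 in OA and at 307, 196, 247 and 166 in OB. No OA library came near an OB library, and the log2 difference was 4.17 ± 0.24 (adjusted p = 0.000357). Reln (chromosome 5, 21884454 to 22344702, minus strand), which encodes the secreted neuronal guidance protein reelin, was at 238, 228 and 240 in OA and at 1398, 1338, 1698 and 1640 in OB. The OA libraries were nearly equal and all OB libraries lay well above them, a log2 difference of 2.68 ± 0.11 (adjusted p = 8.09e-05). Egflam encodes pikachurin, a matrix protein of photoreceptor synapses. It went from 23, 13 and 14 in OA to 250, 180, 192 and 230 in OB (log2 difference 3.63 ± 0.21, adjusted p = 0.000408). Slc7a8, a transporter of neutral amino acids, was at 27, 6 and 13 in OA and at 174, 100, 114 and 91 in OB (log2 difference 3.06 ± 0.46, adjusted p = 0.00787). All 4 genes kept their call without each library.

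The receptor gene Epha6 (chromosome 16, 59653483 to 60605531, minus strand), which binds ephrins during axon guidance, was listed at 0 in all 3 OA libraries and at 83, 76, 85 and 97 in OB. It was chosen after its values were seen, for this pattern, so its values are a description with no test. Only 5 called genes with a mean of at least 10 in OB were listed at 0 in all OA libraries.

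**Figure D2:**
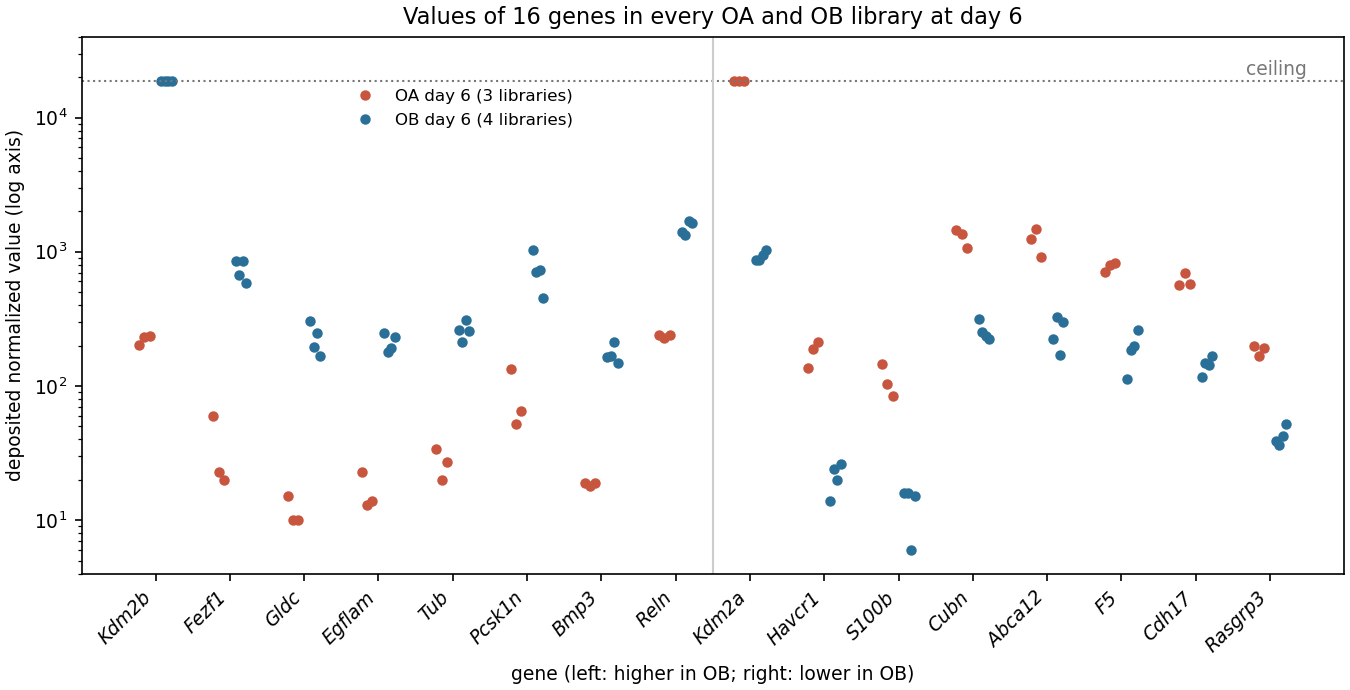
Deposited normalized values (vertical log axis) of 16 genes in each of the 3 OA libraries and 4 OB libraries at day 6, 1 point per library, with the ceiling of 18690 as a dotted line. The groups do not overlap in any of the 16 genes, and only Kdm2b in OB and Kdm2a in OA sit at the ceiling.

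Some transcription factors of neural progenitors were higher in OB. Of 33 listed genes, 17 were tested, and Neurog1, Six3 and Hes5 were at 0 in all 7 libraries. Of the 17 tested members, 10 rose and 0 fell, against 6.09% of all tested genes that rose, and the median log2 difference was 1.19. The other 7, such as Sox1 (adjusted p = 0.159), Sox11 (0.11) and Irx3 (0.303), were not called. Of the 13 members that reached 10 in at least 1 library of each group, 6 rose and 0 fell (median 0.85), against 5.33% of such genes. Fezf1 (chromosome 6, 23245044 to 23248362, minus strand), a zinc finger repressor of the developing forebrain, was at 60, 23 and 20 in OA and at 846, 674, 846 and 583 in OB. Its log2 difference was 4.54 ± 0.37 (adjusted p = 0.000936), and the highest OA library lay far under the lowest OB library. Insm1, a zinc finger factor of neurogenic and neuroendocrine progenitors, was at 145, 111 and 154 in OA and at 654, 575, 587 and 492 in OB (log2 difference 2.08 ± 0.15, adjusted p = 0.000588). Both genes were higher in every OB library than in any OA library.

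Sox3, Pou3f3, Sox21, Pax6, Nkx6-1 and Nkx6-2 were also among the members that rose. Sox3, a factor of neural progenitors related to Sox2, was at 162, 152 and 181 in OA and at 393, 450, 382 and 364 in OB (log2 difference 1.26 ± 0.11, adjusted p = 0.00113). Pou3f3, a POU factor of the forebrain, rose by 2.38 ± 0.21 (adjusted p = 0.00113) from 19, 23 and 20. Pax6, a master regulator of eye and forebrain, was low in both groups, at 8, 7 and 5 in OA and at 16, 12, 15 and 13 in OB. Pax6 and Nkx6-2 reached 10 in OB only, so they entered the test through the group in which they were high. Without 1 library, between 8 and 10 members kept a call. The count was 8 without OA replicate 3 or OB replicate 3. Nkx6-1 lost its call without OA replicate 2, OA replicate 3 or OB replicate 3 (adjusted p up to 0.0664). With the spread pooled over the series, without the doubtful day 14 library described below, Pax6 lost its call (adjusted p = 0.199).

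Genes of the neuronal cytoskeleton and of regulated secretion moved less evenly. Of 21 tested members, 7 rose and 1 fell, with a median log2 difference of 0.19, against 6.09% and 5.79% of all tested genes. With the spread pooled over the series 3 rose and 2 fell, and 6 rose and 2 fell in that fit without the doubtful day 14 library. Pcsk1n, which encodes an inhibitor of prohormone convertase, was at 134, 52 and 65 in OA and at 1026, 706, 734 and 452 in OB (log2 difference 3.17 ± 0.38, adjusted p = 0.00339). Pcsk1, the convertase itself, was at 114, 90 and 101 in OA and at 324, 254, 302 and 268 in OB (log2 difference 1.49 ± 0.13, adjusted p = 0.00108). The convertase and its inhibitor were thus both higher in every OB library than in any OA library. Scg3, a granin of secretory granules, rose by 2.14 ± 0.20 (adjusted p = 0.00154), and Gap43, a growth cone protein, by 1.05 ± 0.11 (adjusted p = 0.00193). Dcx, a microtubule-binding protein of migrating neurons, Uchl1, a neuronal ubiquitin hydrolase, and Nefl, the light neurofilament chain, also rose.

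Scg2, another granin, fell, at 40, 22 and 32 in OA and at 12, 4, 8 and 11 in OB (log2 difference -1.78 ± 0.36, adjusted p = 0.0225). The neuronal tubulin gene Tubb3, a defining marker of neurons, was at 188, 88 and 118 in OA and at 274, 159, 190 and 166 in OB, with overlapping groups and no call (adjusted p = 0.23). In bulk libraries such as these, more cells of a type and more RNA per cell cannot be told apart. Nefl lost its call without any 1 library other than OA replicate 1 (adjusted p up to 0.145), and Scg2 without OA replicate 1, OA replicate 3 or OB replicate 3 (up to 0.0732).

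**Figure D3:**
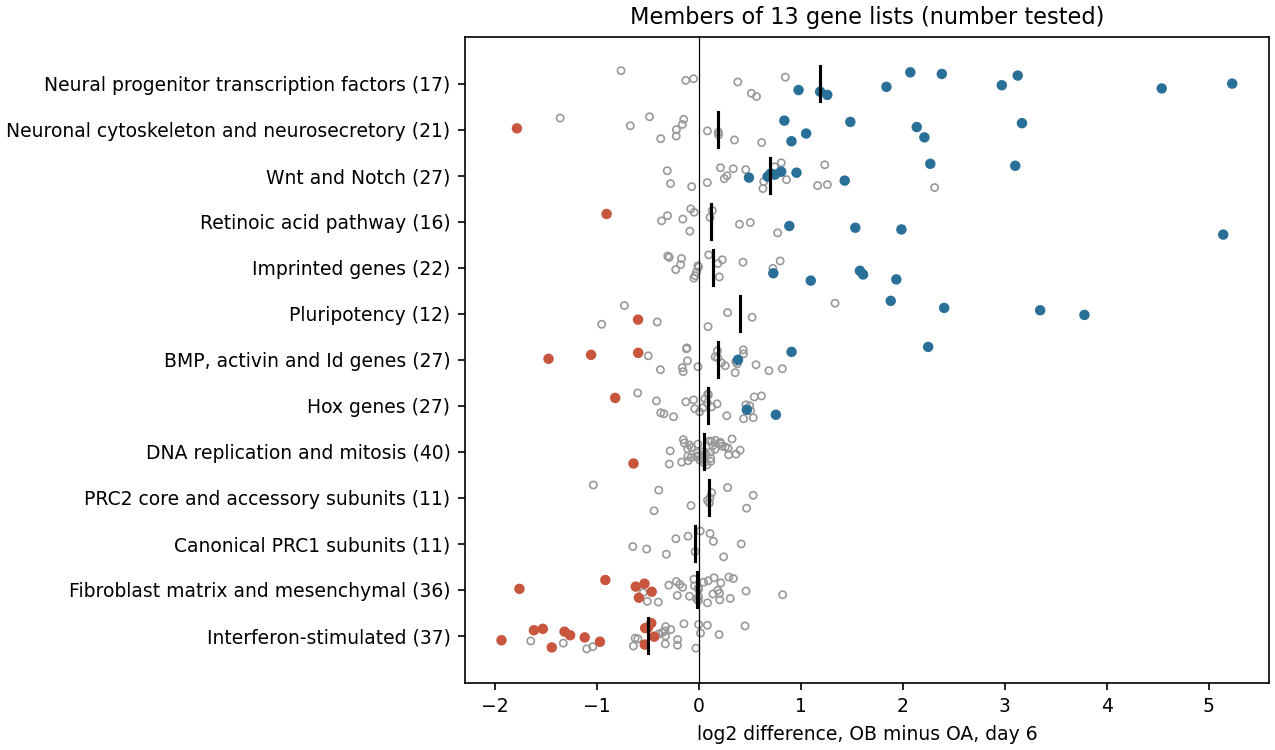
Log2 difference between OB and OA at day 6 (horizontal axis) of each tested member of 13 gene lists (rows, with the number tested), with called members filled in blue (higher in OB) or red (lower in OB), members without a call as open circles and the median as a black bar. The neural progenitor factors have the median farthest above 0 (1.19) and the interferon-stimulated genes the median farthest below 0 (-0.49) of these 13 lists.

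Some genes of the Wnt and Notch pathways were higher in OB. These pathways pass signals between neighbouring cells, Wnt through Frizzled receptors and Notch through membrane-bound Delta ligands. Of 27 tested members, 9 rose and 0 fell, with a median log2 difference of 0.70, against 6.09% of all tested genes that rose. Of the 23 that reached 10 in at least 1 library of each group, 8 rose and 0 fell (median 0.68). Of the Notch genes, the ligand gene Dll4 was at 5, 7 and 2 in OA and at 44, 67, 51 and 25 in OB (log2 difference 3.10 ± 0.42, adjusted p = 0.00542). Dll4 reached 10 in OB only and so entered the test through the group in which it was high. Hey1, a transcriptional repressor induced by Notch, was at 27, 23 and 14 in OA and at 100, 113, 105 and 96 in OB (log2 difference 2.27 ± 0.21, adjusted p = 0.0014). The receptor gene Notch1 was at 114, 110 and 95 in OA and at 216, 172, 208 and 157 in OB, a smaller difference of 0.81 ± 0.14 (adjusted p = 0.0132). These 3 genes were each higher in all OB libraries than in any OA library. Hes1, another Notch target (adjusted p = 0.198), and the receptor genes Notch2 (0.129) and Notch3 (0.166) were not called.

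Of the Wnt genes, Sfrp1, a secreted protein that binds Wnt ligands and limits their action, was at 392, 329 and 294 in OA and at 970, 954, 904 and 816 in OB (log2 difference 1.43 ± 0.12, adjusted p = 0.00113). The receptor genes Fzd7 and Fzd2 rose by 0.96 ± 0.12 (adjusted p = 0.00368) and 0.70 ± 0.12 (adjusted p = 0.013). Fzd1 and the ligand genes Wnt5a and Wnt5b rose by 0.75 ± 0.18, 0.49 ± 0.10 and 0.68 ± 0.16. The Wnt target genes Axin2 (adjusted p = 0.0783), Lef1 (0.153), Nkd1 (0.238) and Tcf7 (0.873) were not called. The count of 9 dropped to between 5 and 8 without 1 library, and it was lowest without OA replicate 3. Fzd1, Wnt5a and Wnt5b lost their call in at least 5 of the 7 fits without 1 library (adjusted p up to 0.122), and Notch1 without OA replicate 3 (0.0503).

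The BMP, activin and Id list was split, with 3 of 27 members higher and 3 lower and a median of 0.19. The shares over all tested genes were 6.09% higher and 5.79% lower. Ltbp2, a matrix protein of the family that binds latent TGF-beta, was at 118, 102 and 114 in OA and at 525, 552, 486 and 572 in OB (log2 difference 2.25 ± 0.10, adjusted p = 8.59e-05). Inhba, which encodes an activin subunit, fell from 124, 156 and 117 in OA to 69, 68, 60 and 55 in OB (log2 difference -1.05 ± 0.14, adjusted p = 0.00463). The groups did not overlap in either gene. The calls of Grem1 and Tgfb2, which rose, and of Tgfb1, which fell, were each lost in at least 3 of the 7 fits without 1 library (adjusted p up to 0.154). Bmp3 (chromosome 5, 98854415 to 98884396, plus strand), an atypical BMP ligand, was at 19, 18 and 19 in OA and at 165, 168, 214 and 148 in OB. The log2 difference of Bmp3 was 3.14 ± 0.13 (adjusted p = 8.09e-05), with OA libraries almost equal.

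Retinoic acid is a vitamin A derivative that patterns the embryo. Of 16 tested members of its pathway, 4 rose and 1 fell (median 0.12), against 6.09% and 5.79% of all tested genes. Cyp26a1, which degrades retinoic acid, was listed at 0 in all OA libraries and at 39, 36, 43 and 23 in OB (adjusted p = 7.27e-05). Aldh1a3, which makes retinoic acid from retinal, was at 278, 226 and 224 in OA and at 799, 656, 688 and 675 in OB (log2 difference 1.54 ± 0.12, adjusted p = 0.000782). Its relative Aldh1a2 rose by 1.99 ± 0.18 (adjusted p = 0.00133), and Rdh10, which oxidises retinol, by 0.89 ± 0.14 (adjusted p = 0.01). These 4 kept their call without each library. The list's other synthesis enzyme gene Aldh1a1 (log2 difference -0.09, adjusted p = 0.825), the breakdown enzyme gene Cyp26b1 (adjusted p = 0.0746) and Dhrs3, a retinal reductase gene (adjusted p = 0.103), were not called. Cyp26a1 reached 10 in OB only and so entered the test through the group in which it was high. The receptor gene Rarg fell by 0.90 ± 0.17 (adjusted p = 0.0186) and lost its call without each of the OA libraries (adjusted p up to 0.0691).

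Of the Polycomb genes other than Kdm2b and Kdm2a, Bcor and Rnf2 were called. Of 11 members of the PRC1.1 list, which includes Kdm2a, 3 rose and 1 fell, and Kdm2b and Kdm2a are among them. The shares over all tested genes were 6.09% higher and 5.79% lower. Bcor, the corepressor that anchors PRC1.1, was at 226, 199 and 197 in OA and at 547, 544, 500 and 462 in OB (log2 difference 1.30 ± 0.10, adjusted p = 0.000787). The groups were clearly apart for Bcor, and the call held without each library. Rnf2, the ubiquitin ligase subunit RING1B, was at 198, 171 and 149 in OA and at 269, 222, 276 and 228 in OB (adjusted p = 0.0474), and this call was lost without any 1 library other than OA replicate 1 (up to 0.143). Pcgf1, the subunit that distinguishes PRC1.1 from other PRC1 complexes, was at 16, 22 and 23 in OA and at 16, 17, 22 and 32 in OB (log2 difference 0.06 ± 0.25, adjusted p = 0.915). No member of the PRC2 list (11 tested) or of the canonical PRC1 list (11 tested) passed the test. The PRC2 methyltransferase gene Ezh2 came nearest, at 160, 212 and 168 in OA and at 228, 262, 238 and 266 in OB (adjusted p = 0.0531).

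Few pluripotency genes reached the level needed for a test. Of 32 listed genes, 12 were tested, 4 rose and 1 fell, and values were low throughout. Among all tested genes 6.09% rose and 5.79% fell. Only 8 of the 12 reached 10 in at least 1 library of each group, and of these 1 rose and 1 fell (median 0.19). Sall4, Nr5a2 and Utf1 reached 10 in OB only, so they entered the test through the group in which they were high. Sall4, a zinc finger factor of embryonic stem cells, was at 1, 1 and 6 in OA and at 58, 27, 55 and 32 in OB (log2 difference 3.78 ± 0.50, adjusted p = 0.00523). Nr5a2, a nuclear receptor that activates Pou5f1, was at 1, 2 and 2 in OA and at 14, 11, 15 and 12 in OB (log2 difference 2.41 ± 0.18, adjusted p = 0.000675). Utf1, a chromatin factor of stem cells, rose by 3.35 ± 0.52 (adjusted p = 0.00875). Every OB library exceeded every OA library in these 3 genes, though none reached 60. Tbx3 fell with a call that was lost in 6 of the 7 fits without 1 library (adjusted p up to 0.0863).

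Imprinted genes, which are expressed from one parental allele, rose in 5 of 22 tested cases and fell in 0 (median 0.14). Among all tested genes 6.09% rose and 5.79% fell. Igf2 (chromosome 7, 142650766 to 142666816, minus strand), the fetal growth factor, was at 1312, 1124 and 1364 in OA and at 5077, 4621, 4621 and 5077 in OB. The log2 difference was 1.94 ± 0.10 (adjusted p = 0.000244), with no overlap. H19, the noncoding RNA next to Igf2, was at 2178, 1472 and 1490 in OA and at 4621, 3172, 3492 and 3320 in OB (log2 difference 1.10 ± 0.19, adjusted p = 0.0131). Peg10, a retrotransposon-derived placental gene, rose by 1.58 ± 0.23 (adjusted p = 0.00707), and Mest and Dlk1 also rose. The count of 5 dropped to 2 without OA replicate 2 or OA replicate 3. H19 and Mest lost their call without either of these (adjusted p up to 0.0523 and 0.057), and Dlk1 in 4 such fits (up to 0.0815).

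Among all tested genes 6.09% rose and 5.79% fell. Of 23 tested enzymes and transporters of serine, glycine and one-carbon metabolism, 2 rose, Gldc among them, and 2 fell (median 0.03). The others called were Psat1, of serine synthesis, at 0.60 ± 0.14 (adjusted p = 0.0366), the cystine transporter gene Slc7a11, at -1.11 ± 0.26 (adjusted p = 0.0352), and Mtr, methionine synthase, at -0.46 ± 0.11 (adjusted p = 0.0393). Psat1, Slc7a11 and Mtr lost these calls in at least 6 of the 7 fits without 1 library (adjusted p up to 0.126). Sardh, the sarcosine dehydrogenase of mitochondria and outside this list, fell from 180, 192 and 118 in OA to 24, 66, 41 and 35 in OB (log2 difference -2.01 ± 0.34, adjusted p = 0.0116).

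Havcr1, S100b, Cubn, Abca12, Rasgrp3, F5 and Cdh17 were among the 12 largest falls that the naming rule takes. Cubn (chromosome 2, 13276338 to 13491813, minus strand) encodes cubilin, the endocytic receptor for vitamin B12 with intrinsic factor in gut and kidney. It was at 1449, 1362 and 1062 in OA and at 313, 253, 236 and 222 in OB (log2 difference -2.33 ± 0.16, adjusted p = 0.000558). Havcr1 (chromosome 11, 46735080 to 46779578, plus strand), the phosphatidylserine receptor KIM-1 of injured kidney tubules, was at 136, 188 and 213 in OA and at 14, 24, 20 and 26 in OB. Its log2 difference was -3.04 ± 0.24 (adjusted p = 0.000833), and the lowest OA library was far above the highest OB library. Cdh17 (chromosome 4, 11758147 to 11817895, plus strand), the cadherin of liver and intestine, fell from 567, 698 and 574 in OA to 116, 148, 144 and 168 in OB (log2 difference -2.09 ± 0.15, adjusted p = 0.000558).

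Abca12, a lipid transporter of the skin barrier, was at 1254, 1470 and 908 in OA and at 224, 326, 171 and 300 in OB (log2 difference -2.26 ± 0.26, adjusted p = 0.00309). F5, coagulation factor V, fell from 708, 800 and 829 to 112, 186, 198 and 262 (log2 difference -2.09 ± 0.27, adjusted p = 0.00423). S100b, a calcium-binding protein of glia and other cells, was at 145, 104 and 84 in OA and at 16, 16, 6 and 15 in OB (log2 difference -3.03 ± 0.36, adjusted p = 0.0032). Rasgrp3, an activator of Ras and Rap, was at 197, 168 and 192 in OA and at 39, 36, 42 and 52 in OB (adjusted p = 0.000534). All of these genes kept their call without each library, and their OA and OB values did not overlap.

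Cubn was the only called member of its list that fell. The list of apical endocytic receptors and visceral endoderm genes had 4 of 14 tested members higher and 1, Cubn, lower (median 0.35). Among all tested genes 6.09% rose and 5.79% fell. Lrp2, which encodes megalin, the receptor that works together with cubilin, moved the other way, from 17, 45 and 21 in OA to 88, 84, 95 and 81 in OB (log2 difference 1.74 ± 0.30, adjusted p = 0.0129). The basement membrane genes Lamc1 and Lamb1 rose by 0.72 ± 0.11 (adjusted p = 0.00789) and 0.72 ± 0.12 (adjusted p = 0.0102). Col4a1 rose by 0.48 ± 0.11, a call lost in 5 of the 7 fits without 1 library (adjusted p up to 0.106).

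Epithelial genes were likewise divided, with 3 of 14 higher and 2 lower (median 0.00), against 6.09% and 5.79% of all tested genes. Of the 12 members that reached 10 in at least 1 library of each group, 2 rose and 1 fell. Grhl2, a transcription factor of epithelial identity, was at 2, 1 and 4 in OA and at 19, 16, 32 and 22 in OB (log2 difference 2.86 ± 0.34, adjusted p = 0.00341). Perp, a desmosomal protein and p53 target, was at 57, 53 and 112 in OA and at 200, 208, 256 and 221 in OB (log2 difference 1.65 ± 0.26, adjusted p = 0.00933). The simple epithelial keratin gene Krt8 went the other way, from 56, 38 and 47 to 12, 5, 13 and 8 (log2 difference -2.25 ± 0.31, adjusted p = 0.00563), together with Krt19 (-1.78 ± 0.29, adjusted p = 0.0104). Grhl2 reached 10 in OB only and Krt19 in OA only, so each entered the test through the group in which it was high. The desmosome gene Dsp rose by 0.70 ± 0.09 (adjusted p = 0.00396), a call lost with the spread pooled over the series (adjusted p = 0.35, and 0.0971 without the doubtful day 14 library).

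Some of the interferon-stimulated genes, which sense and restrict viruses, were lower in OB. Of 37 tested members, 13 fell and 0 rose, against 5.79% of all tested genes that fell, and the median log2 difference was -0.49. The other 24 were not called, and 5 of the 37 had a difference above 0. Isg15, a ubiquitin-like modifier, was at 116, 61 and 82 in OA and at 38, 28, 31 and 25 in OB (log2 difference -1.44 ± 0.23, adjusted p = 0.0102). Gbp2, an interferon-induced GTPase, was at 144, 114 and 116 in OA and at 47, 69, 37 and 49 in OB (log2 difference -1.31 ± 0.21, adjusted p = 0.00937). Oas1a, of the family that makes the activator of RNase L, fell by 0.97 ± 0.14 (adjusted p = 0.00648), though reads of its near-identical copies may be split between them. Dhx58, the RNA sensor LGP2, fell by 1.26 ± 0.14 (adjusted p = 0.00268).

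Further members that fell were H2-D1, Oas3, Xaf1, Ddx58, Trim30a, Lgals3bp, Zbp1 and Parp14. Only Dhx58, Oas1a, Gbp2 and Isg15 of the 13 kept their call without each library, and of these 4 Gbp2 alone kept it with the spread pooled over the series (Dhx58 adjusted p = 0.104, Oas1a 0.0587, Isg15 0.0559). The count dropped to between 5 and 10 when 1 library was left out, and was lowest, at 5, without OA replicate 1 or OA replicate 3. In that pooled fit the count was 4, and it was 8 in the pooled fit without the doubtful day 14 library. Of the 35 members that reached 10 in at least 1 library of each group, 12 fell and 0 rose (median -0.46), against 5.49% of such genes that fell.

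Fibroblast and mesenchymal genes were detected in both groups, and all 36 listed genes were tested. Vim, the mesenchymal intermediate filament, was at the ceiling and Fn1, fibronectin, at 9308 in all 7 libraries, so the most abundant members cannot be compared. Of the 36, 6 fell and 0 rose, against 5.79% and 6.09% of all tested genes, and the median was -0.01. S100a4, a calcium-binding protein of fibroblasts, was at 278, 272 and 298 in OA and at 66, 78, 124 and 74 in OB (log2 difference -1.76 ± 0.21, adjusted p = 0.0034). Thbs1, the matrix protein thrombospondin 1, fell by 0.91 ± 0.13 (adjusted p = 0.00729) and Col6a3, a collagen VI chain, by 0.59 ± 0.09 (adjusted p = 0.00832). Both of these calls were lost with the spread pooled over the series (adjusted p = 0.125 and 0.622, and 0.0875 and 0.0758 without the doubtful day 14 library). Thy1, Snai2 and Lum also fell, with calls lost in 1, 3 and 5 of the 7 fits without 1 library (adjusted p up to 0.0578, 0.0629 and 0.0759), and the count of 6 dropped to 4 without OA replicate 1, OA replicate 3 or OB replicate 3. Col1a1, the main collagen of fibroblasts, was at 3012, 2178 and 2802 in OA and at 3172, 2347, 2620 and 3172 in OB (adjusted p = 0.782).

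Lists of other cell types were measured for what else the cultures could hold. The shares over all tested genes were 6.09% higher and 5.79% lower. Of 19 macrophage and leukocyte genes in the table, 11 were tested, 3 fell and 0 rose, and their summed level per library was 598 to 1020 in OA and 438 to 748 in OB. The genes that fell were Acp5, Gpr65 and Cd68, and the count was 1 without OA replicate 1, OA replicate 2, OA replicate 3 or OB replicate 3. Gpr65 lost its call in 6 of the 7 fits without 1 library (adjusted p up to 0.0896) and Cd68 in 4 (up to 0.102). Acp5, the acid phosphatase of osteoclasts, went from 138, 202 and 212 in OA to 27, 50, 31 and 71 in OB (log2 difference -2.09 ± 0.35, adjusted p = 0.0111). The pan-leukocyte gene Ptprc was at 32, 50 and 34 in OA and at 46, 46, 30 and 28 in OB, with overlapping groups, and Cx3cr1 was at 0 in all 7 libraries. The part of such cells in the lower interferon values was not tested.

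The endothelial list had 1 of 6 members higher and 2 lower, with Tie1 at 0 in all 7 libraries and summed levels of 616 to 687 in OA and 418 to 496 in OB. The osteoblast and chondrocyte list had 4 of 9 higher and 0 lower (summed levels 2774 to 3158 and 3236 to 4079), with Bglap, Dmp1 and Comp at 0 in all 7, and 1 or 2 members kept a call without 1 library. Muscle (1 of 3 higher), adipocyte (1 of 4 lower), keratinocyte (1 of 4 in each direction), smooth muscle (2 of 15 lower) and germline (0 of 7 called) lists gave few calls. DNA replication and mitosis genes gave 1 call among 40, the helicase subunit gene Mcm4, at 556, 604 and 596 in OA and at 378, 393, 356 and 376 in OB (log2 difference -0.64, adjusted p = 0.00427). Hox genes gave 2 of 27 higher and 1 lower. For all of these lists the background was 6.09% of tested genes higher and 5.79% lower.

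Values of another factor combination, ODR, are given beside OB and OA as a description. The labels do not expand ODR either, so its values do not tell whether OB or OA moved. ODR had 2 usable libraries at day 6, because its replicate 3 held the same values at all 21350 genes as a library labelled as grown with BMP4. The ODR mean was nearer to OA than to OB in 72.4% of the genes higher in OB, in 65.4% of those lower in OB and in 58.2% of all tested genes. Gldc was at 10 and 14 in ODR, Reln at 179 and 221 and Igf2 at 1028 and 1096, all near OA. Havcr1 was at 174 and 160 and Cdh17 at 750 and 507, also near OA and above OB. Cubn was the reverse: ODR was at 264 and 226, within the OB range of 222 to 313 and far below OA. S100b lay between, at 32 and 40.

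The same contrast was measured at days 1 and 14 in other libraries of the same design. At day 1 (2 libraries per group) the difference had the same sign as at day 6 in 83.0% of the genes higher in OB and 77.7% of those lower, against 64.1% of all tested genes. At day 14 (3 libraries per group) these shares were 61.9%, 88.7% and 62.7%. The library labelled OA day 14 replicate 2 had Kdm2a at 721 rather than at the ceiling, which goes against its label, and without it the shares were 60.7%, 88.7% and 62.0%. Higher genes thus kept their sign at day 14 about as often as genes in general, while lower genes kept it more often.

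A test of the change of the difference between days was run on 17 libraries. From day 1 to day 6 it called 11 genes (0.0877% of those tested), with 8 of them among the 1490. Igf2 was one, at 3492 and 3172 in OA and 4218 and 3993 in OB at day 1, so the gap at day 6 came with lower values in OA. Its difference grew by 1.64 ± 0.21 (adjusted p = 0.0117). The other list member called was Nr5a2, whose difference grew by 2.20 ± 0.25 (adjusted p = 0.00901). The count was 63 without the doubtful day 14 library and 0 without OA day 1 replicate 2. The 1490 genes were called on day 6 values that also enter this change, which favours a growing difference among them.

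From day 6 to day 14 the difference changed in 3938 genes (31.4% of those tested), and in 4534 (36.2%) without the doubtful library. Among the 764 genes higher in OB at day 6, the difference shrank or turned in 276 and grew in 56 (356 and 54 without that library). Among the 726 lower genes it grew in 157 and shrank in 71 (215 and 91 without it). Both sets were chosen by the day 6 difference, which also enters the change, so a shrinking difference is favoured in advance. Bmp3 was at 9, 21 and 14 in OB and at 14, 10 and 20 in OA at day 14, so its difference had fallen by 3.16 ± 0.53 (adjusted p = 0.00127). Hey1 was at 42, 40 and 42 in OB and at 50, 158 and 60 in OA, where 158 is the library labelled OA day 14 replicate 2. With that library included, its difference fell by 3.17 ± 0.46 (adjusted p = 0.000647). Both genes had been well apart at day 6 and overlapped or reversed at day 14.

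Gldc stayed apart at day 14, at 376, 383 and 400 in OB against 44, 102 and 25 in OA, where 102 is the library labelled OA day 14 replicate 2. With that library included, its change was not called (adjusted p = 0.0984). Cubn was at 52, 78 and 64 in OB and at 810, 79 and 668 in OA, where 79 is the library labelled OA day 14 replicate 2. Its change from day 6 was -0.11 ± 0.85 (adjusted p = 0.938) with that library and -1.18 (adjusted p = 0.00739) without it.

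**Figure D4:**
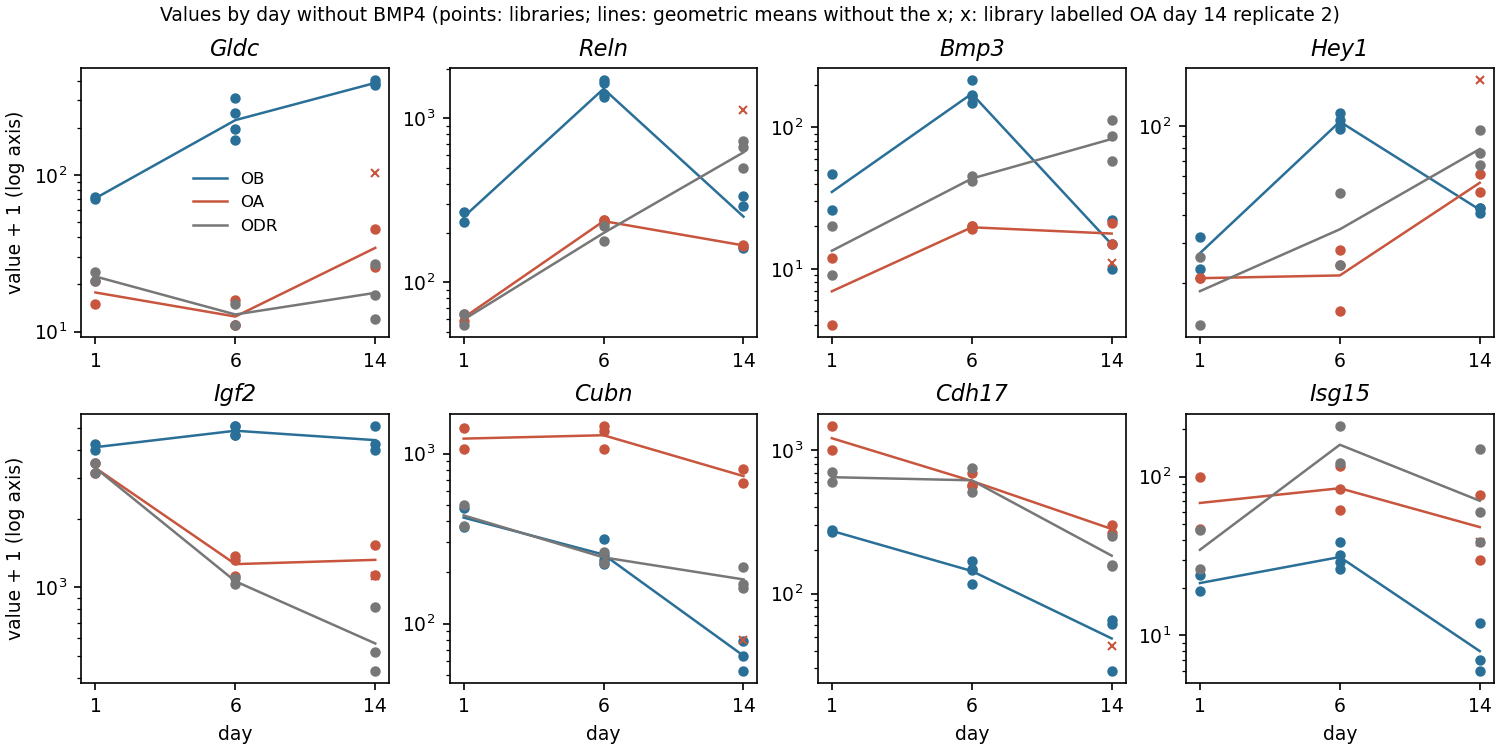
Deposited values + 1 (vertical log axis) of 8 genes at days 1, 6 and 14 without BMP4 in OB (blue), OA (red) and ODR (grey), with 1 point per library, lines through geometric means, and a cross for the library labelled OA day 14 replicate 2, which the lines leave out. Gldc stays higher in OB at each day and Cubn stays higher in OA than in OB at each day apart from the cross, while Bmp3 and Hey1 are higher in OB than in OA at day 6 and not at day 14.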

How the data were processed

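Libraries of polyadenylated RNA were made by the submitters. The tools bcl2fastq, RSEM and Bowtie2 2.2.5 and the build mm10 are named per the submitters' processing notes. The normalization was not given in the sources used here. Deposited values are a normalized score per gene in whole numbers with a ceiling, and the authors' score is not a read count, so no count model was used and the depth is unknown. Values were taken as log2(value + 1), genes reaching 10 in 2 or more of the 7 libraries were kept (12542 of 21350), and OB and OA were compared with limma 3.58.1 in R 4.3.3 (two-sided, Benjamini-Hochberg over all genes tested, called at an adjusted p below 0.05, 5 residual degrees of freedom). ± is the SE of the log2 difference. A fold on this scale understates the change of low genes. The change between days was fitted to the 17 OB and OA libraries of days 1, 6 and 14.

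Genes were named by a rule: Kdm2a, Kdm2b, Gldc, Cubn and Pou5f1, the 12 largest called differences in each direction without overlap and with a group mean of at least 100, and up to 3 members per direction of each of 33 lists with at least 3 called members. Other list members are named to complete a count, markers are named for their absence or overlap, and Epha6, Ezh2, Pcgf1, Tubb3 and Col1a1 were chosen after their values were seen. So were the uncalled neural progenitor, Wnt, Notch and retinoic acid genes given beside those counts. The counts over genes that reached 10 in at least 1 library of each group were added after seeing the data. The members and lists were chosen with earlier results of these data known. Alternatives covered the added number, the filter, scaling, limma options, array weights, a spread pooled over 27 libraries, a replicate block and leaving out each library. The test was checked on simulated data. A few genes picked by the naming rule, or counted in a list, are left unreported. Positions are those of GENCODE vM21, and promoter letters come from RefSeq.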

Additional observations from a re-analysis of the deposited data

Results flagged for a closer look

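Some values lay far from the rest of their group of 4 OB libraries, by a gap that chance gives in about 1 group in 20. They were Nkx6-2 in OB replicate 4 (8, others 20 to 23), S100b in OB replicate 3 (6, others 15 to 16), and, in OB replicate 1, Lamc1 (3320, others 2620 to 2722), Gap43 (5612, others 6240) and Grem1 (6248, others 7097). The last 2 sit on the steps of the scale above 4000, where neighbouring values are far apart.

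The OB minus OA difference of several named genes changed between days by a test of that change (limma, log2 scale). From day 1 to day 6 it grew by 1.64 for Igf2 and 2.20 for Nr5a2. From day 6 to day 14 it changed in the opposite direction to the day 6 difference for the following genes that were higher in OB. Among transcription factors the change was -3.17 for Hey1, -2.36 for Nkx6-1, -2.04 for Grhl2 and -1.27 for Nr5a2. Among secreted and signalling genes it was -3.16 for Bmp3, -3.01 for Reln, -2.79 for Sfrp1, -2.26 for Ltbp2 and -2.24 for Dll4. It was -3.37 for Slc7a8, -2.43 for Pcsk1n, -2.34 for Perp, -1.58 for Lamc1, -1.39 for Aldh1a3, -1.32 for Uchl1, -1.31 for Rdh10 and -0.84 for Lamb1. Kdm2b changed by -2.11, but every OB library of day 6 was at the ceiling, so neither this size nor its call can be interpreted. For Mest and Psat1 the difference grew, by 1.49 and 1.14. Of the genes lower in OB, the difference deepened for Thbs1 (-2.26), Oas1a (-1.25) and Tgfb1 (-1.11) and moved the other way for Scg2 (1.86) and Rarg (0.89). Without the library labelled OA day 14 replicate 2, these changes after day 6 kept their direction and their call, apart from that of Dll4 (-1.64, adjusted p = 0.083). The sizes of 3 of them moved by over 1.5 times, to -2.04 for Slc7a8, -0.85 for Uchl1 and 0.87 for Mest. Epha6, chosen after its day 6 values were seen, changed by -3.46 from day 6 to day 14, a description with no test. Most of these genes were named for their day 6 call, which enters each change and favours a shrinking difference after day 6.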

How the results depend on the processing

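The difference of 0 of the genes followed under these settings turned sign. With a minimum value of 50 the lower genes (738) outnumbered the higher (727), the reverse of the reported balance. The 764 higher and 726 lower genes became 585 and 482 without a filter on low values, and 443 to 595 and 362 to 562 when 1 library was left out. With the spread pooled over 27 libraries they were 548 and 484 (840 and 805 without the doubtful library of day 14), and 980 and 945 with limma's trend and robust options. The count of 11 genes whose difference changed from day 1 to day 6 was 63 without the library labelled OA day 14 replicate 2, and 0 to 28 when 1 library of these days was left out. The change from day 6 to day 14 was called in 2874 to 4534 genes across such fits. In the pooled fit 57 of the 146 genes followed lost their call, and 26 in that fit without the doubtful library. Among them, Notch1 (adjusted p = 0.0692), Inhba (0.0517), Uchl1 (0.0501), Krt19 (0.127), Mest (0.146), Sox3 (0.185), Dcx (0.155), Gap43 (0.185) and Peg10 (0.0649) lost their call, and without the doubtful library they regained it (adjusted p from 0.000721 to 0.0384).

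The replicate numbers did not meet the rule for pairing, a correlation above 0.1 in every pair: the deviations of same-numbered OA and OB libraries correlated at 0.31, 0.14 and 0.055, and not every library matched its own number best. The second principal component (16.2% of the variance) also separated low from high numbers in both groups, a hint from the data and not from the design. With the replicate number as a block, limma called 645 higher and 615 lower genes at day 6, and 0 genes for the change from day 1 to day 6.

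Genes at the ceiling, of which 6 were called, have differences that are lower bounds or uninformative, values above 4000 are coarse, and with no read counts the precision of low values is unknown. Genes with near-identical copies, such as the Oas1 and H2 class I genes, are uncertain.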

Other observations

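Some gene families, defined by their symbols after the values were seen, moved mostly one way between OB and OA at day 6, and they are given as counts only. Of 9 tested annexins, calcium-dependent membrane-binding proteins, 6 fell in OB and 0 rose, and of 8 tested S100 calcium-binding proteins 7 fell and 0 rose. Of 9 tested Sp100 and Ifi200 family genes, nuclear body and DNA-sensing proteins, 7 fell and 0 rose, and of 9 complement components and proteases 5 fell and 0 rose. Among families on the higher side were the Frizzled receptors, with 6 of 9 higher and 0 lower, and the gamma protocadherins, with 5 of 14 higher and 0 lower, although the latter share exons, so that their reads may be split between members. Of 12 tested ionotropic glutamate receptor subunits, 5 rose and 1 fell. These families were picked from a larger set, in which others were mixed. Of 20 tested Forkhead factors 6 rose and 2 fell, and of 18 semaphorins 4 rose and 2 fell. Of 12 Eph receptors 3 rose and 2 fell, and of 8 prolactin family genes 1 rose and 3 fell. The background was 6.09% of tested genes higher and 5.79% lower.

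The series holds 1 mouse embryonic stem cell library and 1 fibroblast library, which enter no test. Genes at least 8-fold higher in the stem cell library (a log2 difference of 3) made up 9.42% of the genes higher in OB, 4.96% of those lower and 3.68% of all tested genes. Genes as much higher in the fibroblast library made up 19.8%, 20.5% and 9.54%.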
